A study of Mus musculus with 6 samples.

Results

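The genes described here are 10 calcium-linked and cytoskeletal genes of mouse embryonic stem cells (mESCs), chosen by name: 4 annexins (Anxa1, Anxa2, Anxa3 and Anxa5), 4 S100 genes (S100a4, S100a6, S100a10 and S100a11), the galectin-1 gene Lgals1 and the vimentin gene Vim. All 10 were found by symbol among the 43309 genes counted, and all 10 were among the 16823 genes tested, that is with 10 counts or more in any library. Of the 10, 8 were lower in the libraries labelled knockout, Vim was higher and S100a11 did not pass the test. The 6 libraries were made from J1 (129SV) mESCs grown feeder-free on gelatin in medium with serum, 3 from control clones of genotype Zbtb24 2lox/+ and 3 from clones labelled Zbtb24 knockout, 1lox/1lox. Both groups therefore carried a lox-modified Zbtb24 allele, and each library came from 1 clone, with no treatment or time course. Polyadenylated RNA was turned into libraries with the Illumina TruSeq Stranded mRNA kit from 2 µg of total RNA and 8 cycles of PCR, as the standard-input arm of a study of library kits.

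Annexins are cytoplasmic proteins that bind acidic phospholipids when calcium rises, and they take part in membrane trafficking, organization and repair. S100 proteins are small EF-hand proteins that mostly act by docking onto other proteins in a calcium-dependent way; S100A10 is an exception that has lost calcium binding and is held in a complex with annexin A2 at the plasma membrane. Galectin-1 binds beta-galactosides on cell-surface glycoproteins, and vimentin forms the intermediate filaments of mesenchymal cells and of many cells in culture.

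The totals ran from 26987179 to 27754105 counts in the controls and from 25042261 to 28838924 under the knockout label. Zbtb24 itself, the targeted zinc finger gene on chromosome 10, had 510, 512 and 489 counts in the controls and 888, 925 and 1039 under the knockout label. It was thus higher where a knockout was labelled, by 0.99 on the log2 scale. A count over the whole gene does not separate the deleted part, so it does not check the deletion, and the group is called "labelled knockout" throughout. The comparison was broad: 69.5% of the genes tested passed at an adjusted p of at most 0.05, with 35.2% lower and 34.4% higher under the knockout label. A log2 fold change of at least 1 in size in addition was met by 17.0% of the genes, 11.8% being lower. The common coefficient of variation between clones in the fit was only 2.00%, so that small changes passed too. In the controls, some of the 10 genes varied less than counting alone gives, as Vim did (0.611% against 1.73%). Others varied more, as Anxa2 did (3.21% against 2.15%). Genes of chromosome 1 had a median log2 change of 0.50, those of chromosome 6 of 0.16 and those of chromosome 8 of -0.20, whereas the medians of the 6 chromosomes that hold the 10 genes lay between -0.03 and 0.02. Among genes named below, Itgb1, Zfp42 and Col4a1 lie on chromosome 8. Others, such as Nanog, Dysf, Anxa4 and Col1a2, lie on chromosome 6.

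**Figure D1:**
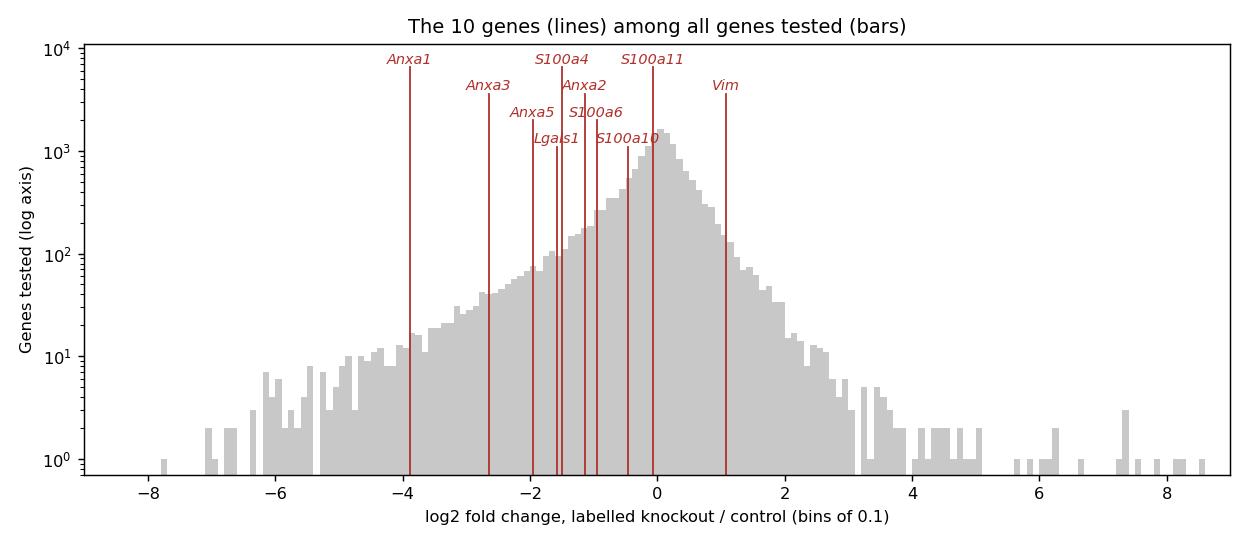
Distribution of the log2 fold change (labelled knockout over control, bins of 0.1) over the 16823 genes tested, with the number of genes on a log axis. Vertical lines mark the 10 genes described here: 8 called lower lie from -3.88 (Anxa1) to -0.46 (S100a10), S100a11 lies at -0.06 and Vim at 1.07.

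Among the 10 genes, 9 were called, 8 lower and 1 higher, and these counts are to be read against the 69.5%, 35.2% and 34.4% of all genes given above. S100a4, among the 8, reached the minimum of 10 counts in control libraries alone, which favours its call. With a log2 fold change of at least 1 in size in addition, 7 of 10 were called, 6 of them lower, against 17.0% and 11.8% of all genes. The 10 were chosen with earlier results of these data known, so setting them against all genes is no test of the list. The CPM of the control and labelled knockout libraries did not overlap for 9 of the 10, and for 71.5% of all genes tested. The median log2 fold change of the 10 was -1.32, and that of all genes tested was -0.00036. In these bulk libraries, fewer cells that express a gene and less of its RNA per cell cannot be told apart. The adjusted p-values below come from the quasi-likelihood F-test of edgeR, adjusted by Benjamini-Hochberg over all genes tested. They rest on the spread between 3 clones of each label, estimated in part over all genes together. The SE of a single gene therefore does not show only the spread of its own clones.

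Promoter sequence was at hand from RefSeq for 7 of the 10 genes, all but Anxa3, S100a10 and Lgals1, and the 250 bases before each start were searched on both strands for short motifs. The letters TGANTCA, the core bound by AP-1 factors, were found before Anxa2 and at 2 places before S100a11, and in 6.75% of 32851 promoters of the same length. They are shown because the same letters stand before a gene that fell and before the gene that did not pass the test. The capitals mark the motif, and the runs are written 5′ to 3′ on the strand of the gene, with positions in GRCm38.p6: chr9:69453577-69453606 on the plus strand for Anxa2, and chr3:93520349-93520378 and chr3:93520447-93520476 on the plus strand for S100a11.
Anxa2: tccaagttggaTGAGTCAcccagcagggtg
S100a11, distal: cagagacctgtTGAGTCAcagggactacaa
S100a11, proximal: cgggcacagccTGAGTCAggctgaggggcg

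The Anxa2 match began 95 bases before the start, and those of S100a11 began 136 and 38 bases before it. TATAAA, the letters of a TATA box, were found in 4 of the 7 promoters and in 12.4% of all promoters. Of those 4 genes, Anxa1, Anxa2 and S100a4 were lower and Vim was higher in the libraries labelled knockout, so the runs are given to show that genes of both directions hold the letters. The starts are those of RefSeq, and the runs of Anxa1, Anxa2 and Vim lie inside the longer gene intervals of GENCODE given with each gene. The positions are chr19:20390686-20390715 on the minus strand, chr9:69453653-69453682 on the plus strand, chr3:90603727-90603756 on the plus strand and chr2:13574267-13574296 on the plus strand.
Anxa1: cagttcatatccTATAAAatcaggagtcca
Anxa2: aggatggggcgggTATAAAagccccaccca
S100a4: ggcctggcagggTATAAAtaggtcagattg
Vim: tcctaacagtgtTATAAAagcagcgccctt

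These matches began 32 bases before the start of Anxa1, 17 before Anxa2, 31 before S100a4 and 32 before Vim. The GC box letters GGGCGG were found before Anxa2 and S100a11 and in 32.7% of all promoters, and GGAATG, the letters of a TEAD site, before Anxa1 and in 12.6%. A CArG box was in none of the 7 and in 1.47% of all promoters. No printed match shared bases with a match to another of the motifs. The promoters of Anxa5 and S100a6 held none of the 5 motifs, which says only that these letters are not in those windows.

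Anxa1, which encodes a mediator of the anti-inflammatory action of glucocorticoids, was the most changed of the 10. The gene (ENSMUSG00000024659) lies at chr19:20373428-20390944 on the minus strand of mm10, as do all positions of genes given here. It had 810, 759 and 782 counts in the controls and 53, 38 and 60 under the knockout label. Every library labelled knockout was far under every control library. In TMM-scaled CPM (counts scaled to a common library size), its level was 28.3 ± 0.604 (SD, n = 3) against 1.90 ± 0.312 (SD, n = 3), 14.8-fold lower, with a log2 fold change of -3.88 (SE 0.086, adjusted p = 9.77e-38). Of the 16823 genes tested, 169 had a lower log2 fold change.

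Anxa3 encodes an annexin best known from neutrophils and lies at chr5:96793339-96845966 on the plus strand (ENSMUSG00000029484). It had 674, 701 and 783 counts in the controls and 99, 110 and 118 under the knockout label, again with no overlap. Its level was 26.0 ± 2.32 CPM against 4.15 ± 0.340 CPM (SD, n = 3 each), 6.27-fold lower (log2 -2.65, SE 0.079, adjusted p = 2.60e-32). The control clones varied by 8.93% of their mean, against 3.73% from counting alone, with control 3 the highest. Anxa5, whose product binds phosphatidylserine and is used as a stain for dying cells, lies at chr3:36448923-36475894 on the minus strand (ENSMUSG00000027712). Its counts were 462, 439 and 441 in the controls and 115, 99 and 114 under the knockout label. The clones of each label lay close together for this gene, and it was 3.89-fold lower (log2 -1.96, SE 0.082, adjusted p = 2.05e-26).

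Anxa2 encodes the annexin that holds S100A10 at the membrane and, with it, takes part in plasminogen activation, and it was the least lowered of the 4 annexins (ENSMUSG00000032231, chr9:69453620-69491795, plus strand). Its level was 75.4, 80.4 and 78.7 CPM in the controls and 42.7, 31.0 and 32.8 CPM under the knockout label. The groups did not overlap, and labelled knockout 1 stood above the other two clones of its label. The gene was 2.20-fold lower (log2 -1.14, SE 0.052, adjusted p = 8.65e-25). The Wald test of DESeq2, tried as an alternative, gave a larger SE of 0.149 (adjusted p = 9.04e-14). The coefficient of variation over the clones labelled knockout was 17.8%, where counting alone gives 3.27% and genes with a mean count within 1.5 times had a median of 2.68%.

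**Figure D2:**
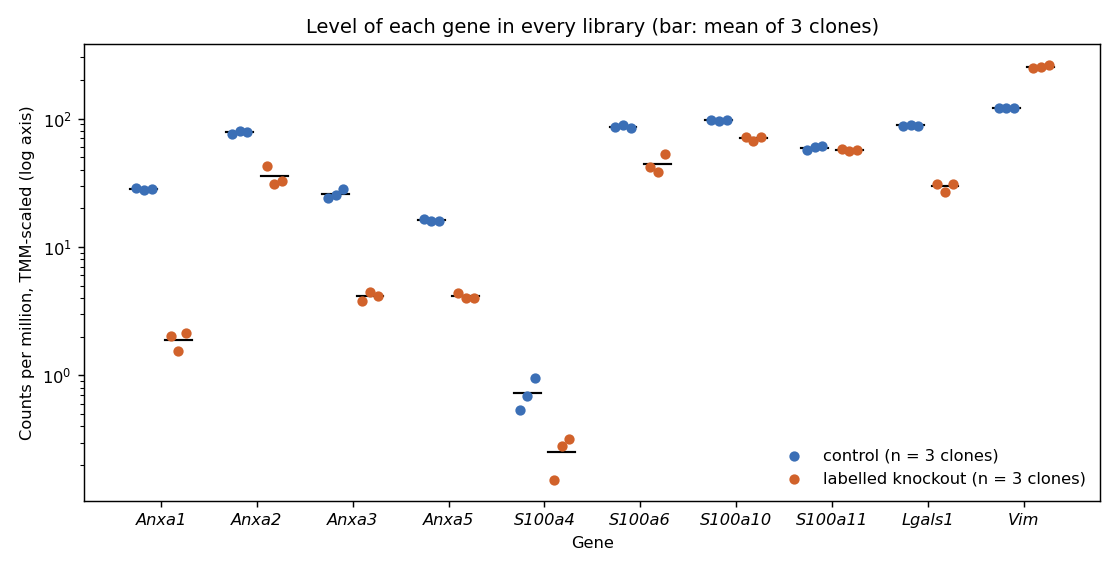
TMM-scaled CPM of each of the 10 genes in the 3 control and 3 labelled knockout libraries, 1 point per library on a log axis, with a bar at the mean of each group. The groups do not overlap for any of the 10 genes but S100a11, and the clones labelled knockout spread most, relative to counting error, for Anxa2 (31.0 to 42.7 CPM) and S100a6 (38.3 to 53.1 CPM).

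The 4 S100 genes moved unequally. S100a10 encodes the light chain held by annexin A2 and lies at chr3:93555080-93564643 on the plus strand (ENSMUSG00000041959). Its level was 96.9, 96.3 and 97.4 CPM in the controls and 71.6, 66.9 and 71.9 CPM under the knockout label. The groups were apart by many times their spread, but the change was small, 1.38-fold lower (log2 -0.46, SE 0.032, adjusted p = 6.27e-18).

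S100a6, the gene of calcyclin, lies at chr3:90612882-90624181 on the plus strand (ENSMUSG00000001025). Its level was 85.4, 89.2 and 84.4 CPM in the controls and 41.6, 38.3 and 53.1 CPM under the knockout label. It was 1.94-fold lower (log2 -0.95, SE 0.051, adjusted p = 4.98e-22). With the Wald test of DESeq2 the SE was larger, at 0.145 (adjusted p = 1.55e-10). The clones labelled knockout varied by 17.5%, where counting gives 2.92% and genes of a similar level 2.53%. This spread was as wide as that of Anxa2 but did not follow it: labelled knockout 3 was the highest for S100a6 and labelled knockout 1 for Anxa2.

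S100a4, known as a fibroblast protein that binds non-muscle myosin, had the fewest counts of the 10 (ENSMUSG00000001020, chr3:90603771-90606045, plus strand). It had 15, 19 and 26 counts in the controls and 4, 7 and 9 under the knockout label. The groups did not overlap, and the gene was 2.82-fold lower (log2 -1.50, SE 0.37, adjusted p = 0.000409). It reached the minimum of 10 counts in control libraries alone, which favours a call of lower. Of its exon bases in the GENCODE M21 annotation, 51.7% are shared with the gene model Gm42674 on the same strand, which is not among the genes counted, so its counts are uncertain in that part.

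S100a11 encodes a partner of annexin A1 and lies at chr3:93520488-93526287 on the plus strand (ENSMUSG00000027907). Its level was 57.2, 59.8 and 60.8 CPM in the controls and 57.7, 55.6 and 56.6 CPM under the knockout label. The groups overlapped. Its log2 fold change of -0.06 (SE 0.036, adjusted p = 0.104) had a 95% interval from -0.13 to 0.01. Without control 1, the lowest control library, the change was -0.09 with an adjusted p of 0.0308, so the call rests on that library. The pseudogene S100a11-ps could share reads with it.

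Lgals1 encodes galectin-1 and lies at chr15:78926725-78930465 on the plus strand (ENSMUSG00000068220). It had 87.9, 89.1 and 88.2 CPM in the control libraries and 30.9, 26.9 and 31.1 CPM under the knockout label. It was 2.98-fold lower, with no overlap (log2 -1.57, SE 0.040, adjusted p = 2.30e-35). Lgals1-ps1 and Lgals1-ps2 are pseudogenes of it, and reads that match both a pseudogene and the gene were discarded by the counting, per the methods of the study.

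Vim encodes vimentin and lies at chr2:13573927-13582826 on the plus strand (ENSMUSG00000026728). It was the only one of the 10 that rose. Its counts were 3385, 3322 and 3343 in the controls and 6423, 6252 and 7408 under the knockout label. This corresponded to 121 ± 0.739 CPM against 254 ± 8.23 CPM (SD, n = 3 each), 2.101-fold higher (log2 1.07, SE 0.027, adjusted p = 3.42e-35). Of all genes tested, 794 had a higher log2 fold change.

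Levels of different genes were compared per length, as CPM per kilobase of the longest annotated transcript. In the control libraries S100a10 was the most abundant at 141, followed by S100a11 at 116, Lgals1 at 111, S100a6 at 110.2, Vim at 41.3, Anxa2 at 34.3, Anxa1 at 16.9, Anxa3 at 16.3, Anxa5 at 9.33 and S100a4 at 1.45 CPM per kilobase. S100a6 could not be told from S100a11 or Lgals1, nor Anxa1 from Anxa3, since their ranges over the control libraries overlapped. All other neighbours in the order were apart.

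In the libraries labelled knockout the order became S100a11 at 110.9, S100a10 at 102, Vim at 86.8, S100a6 at 56.6, Lgals1 at 37.0, Anxa2 at 15.6, Anxa3 at 2.60, Anxa5 at 2.40, Anxa1 at 1.13 and S100a4 at 0.506 CPM per kilobase. Here the ranges overlapped for Anxa3 and Anxa5 alone. Vim thus went from the fifth to the third place and Anxa1 from the seventh to the ninth. With the length of the principal transcript in place of the longest, Vim was at 55.2 in the controls and 116 under the knockout label, Anxa2 was at 54.0 and 24.5, and S100a6 was at 118 CPM per kilobase in the controls. With these lengths the ranges of Vim and S100a11 overlapped under the knockout label, and in the controls those of Vim and Anxa2 and of S100a6 and S100a11 did, so that these pairs could not be ordered.

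S100a10 and Anxa2 encode the subunits of one complex, and their ratio within a library does not depend on scaling between libraries. Per length, there was 4.27, 3.99 and 4.12 times as much S100a10 as Anxa2 RNA in the controls and 5.58, 7.19 and 7.30 times as much under the knockout label. All 3 libraries labelled knockout were above all 3 control libraries. The log2 ratio was 2.04 ± 0.050 against 2.73 ± 0.218 (SD, n = 3 each), a difference of 0.69 with p = 0.1 in a two-sided exact permutation test, the smallest p that 3 against 3 libraries allow. Leaving out single libraries, the difference ran from 0.62 to 0.81. The ratio itself depends on the transcript lengths: with principal transcripts it was 2.71, 2.53 and 2.62 in the controls and 3.54, 4.57 and 4.64 under the knockout label.

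Other genes of the same families were examined from lists of relatives. Of 39 relatives, 38 were counted and 29 tested, and 16 of these were lower, 8 higher and 5 not called, beside 35.2% lower and 34.4% higher among all genes tested. Their median log2 fold change was -0.45. Among the other annexins, 4 of the 7 tested were lower, 1 was higher and 2 were not called. Anxa4 had a log2 fold change of -0.33, Anxa7 of -0.45, Anxa8 of -0.76 and Anxa11 of -0.45, all smaller in size than those of the 4 annexins described above. Anxa6, the annexin with a duplicated core domain, was higher by 0.42 on the log2 scale (SE 0.025, adjusted p = 6.91e-20). Anxa9 and Anxa10, with log2 fold changes of 0.14 and -0.71 at under 1 CPM, did not pass, and Anxa13 reached 4 counts at most and was not tested.

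**Figure D3:**
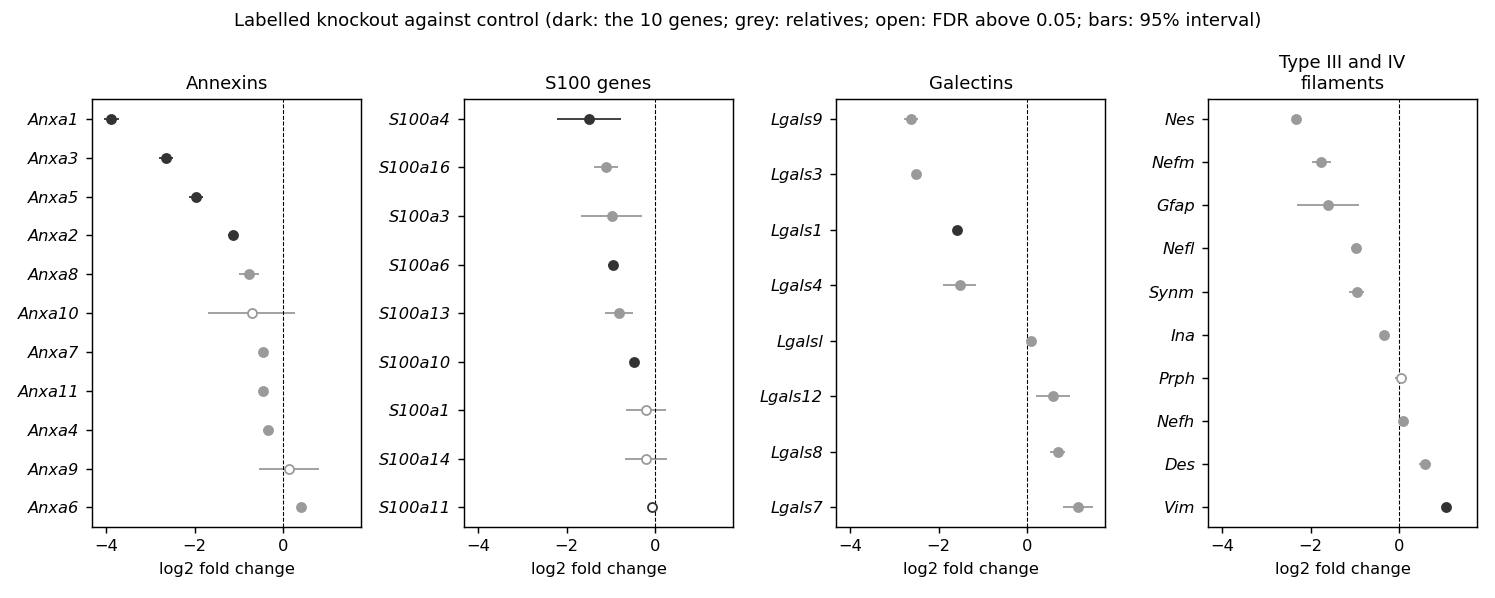
Log2 fold change (labelled knockout over control) of the tested annexin, S100, galectin and filament genes, with bars of the 95% interval, the 10 genes of this account being set apart by colour from their relatives. Anxa1, Anxa3, Anxa5 and Anxa2 are the lowest annexins, Lgals1 lies above Lgals9 and Lgals3, and Vim is the highest of the filament genes.

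Summed per length, the 11 tested annexin genes made 216 ± 3.13 CPM per kilobase in the controls and 163 ± 4.69 under the knockout label (SD, n = 3 each). Anxa6 held 30.6% of this sum in the controls and 53.9% under the knockout label. The share of Anxa2 was 15.9% and 9.49%, and that of Anxa1 was 7.83% and 0.694%. The 9 S100 genes summed to 379 ± 4.92 and 276 ± 15.0 CPM per kilobase, and 3 of the genes described here made nearly all of it. S100a10 held 37.3% and 37.1%, S100a11 30.6% and 40.2%, and S100a6 29.1% and 20.4%, so that S100a11 took the first place in the libraries labelled knockout. The 8 galectin genes summed to 176 ± 1.88 and 64.2 ± 3.43 CPM per kilobase, the largest relative difference of the 3 families, with Lgals1 holding 62.8% and 57.6%. All these sums and shares rest on the longest transcripts. They were not computed with principal transcripts, with which the level of Anxa2 was higher.

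**Figure D4:**
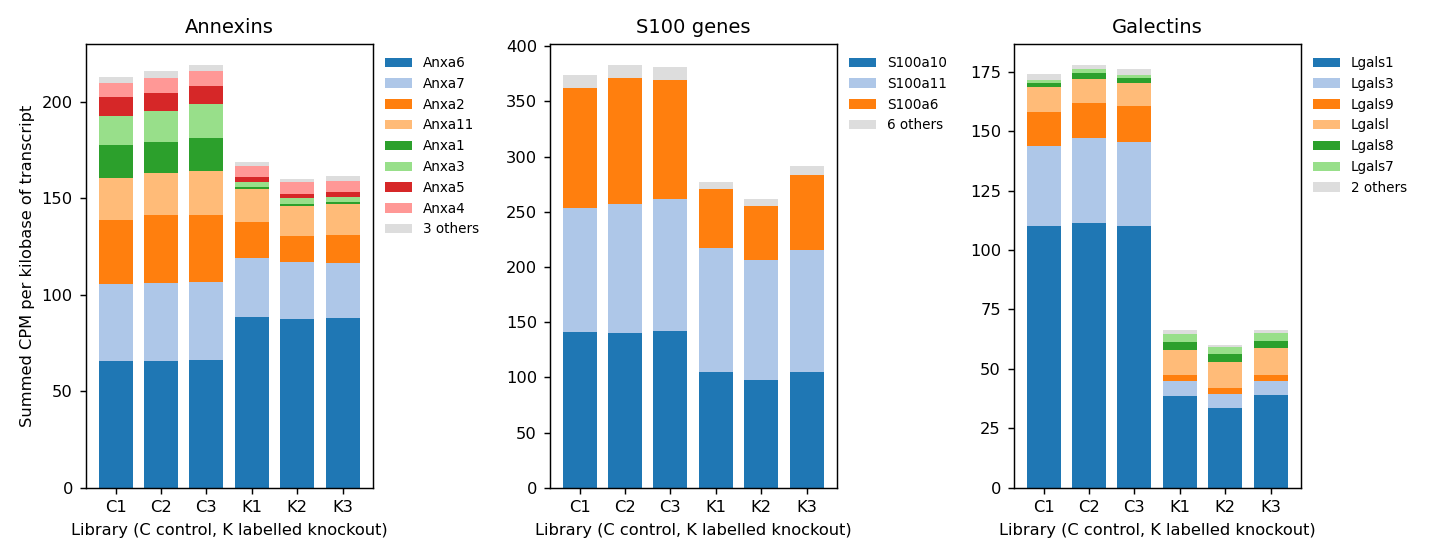
Stacked bars of the CPM per kilobase of the longest transcript of the annexin, S100 and galectin genes in each of the 6 libraries (C control, K labelled knockout), with the genes in colour and the least abundant in grey. The share of Anxa6 widens from 30.6% to 53.9% of the annexins and S100a11 from 30.6% to 40.2% of the S100 genes, while Lgals1 keeps more than 55% of the galectins in every library.

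Of the other galectin genes, 3 of 7 tested were lower and 4 were higher, beside 35.2% lower and 34.4% higher among all genes tested. Lgals3, which encodes the chimeric galectin-3, fell from 49.5 ± 1.3 to 8.69 ± 0.20 CPM (log2 -2.51), and Lgals9, which encodes a tandem-repeat galectin, had a log2 fold change of -2.63. Both of these values were larger in size than that of Lgals1. Lgals4 was lower by a log2 change of -1.52, but it has the near-identical copy Lgals6, so its counts are uncertain. Lgals7 at 1.16, Lgals8 at 0.70, Lgals12 at 0.59 and the galectin-like Lgalsl at 0.10 were higher. Lgals2 reached 6 counts at most and was not tested.

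Vim was compared with 9 other genes of type III and type IV filaments. Of these, 6 were lower, 2 higher and 1 not called, beside 35.2% lower and 34.4% higher among all genes tested. Nes, the gene of nestin, which assembles with vimentin in many precursor cells, moved against it, from 95.1 ± 2.0 to 19.0 ± 0.20 CPM (SD, n = 3 each, log2 -2.33, adjusted p = 2.12e-42). The neurofilament genes Nefm and Nefl were also lower, at -1.76 and -0.98, as were Gfap at -1.61, Synm at -0.96 and Ina at -0.33. Des, the desmin gene, was higher at 0.60 and is a gene of chromosome 1, where the median was 0.50. Nefh was higher at 0.09, and Prph had a log2 fold change of 0.05 that did not pass. With 254 CPM, Vim was the most counted of these filament genes in the libraries labelled knockout.

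The 4 S100 genes described here share chromosome 3 with others of the family. S100a6 and S100a10 start 2942 kb apart, and 9 S100 genes over 3.04 Mb were tested. All 9 log2 fold changes were negative and 6 were called lower, beside the 35.2% lower among all genes. The 6 include S100a4, with the limit of its counts given above. S100a3 had a log2 fold change of -0.97, S100a13 of -0.82 and S100a16 of -1.10, whereas S100a1 and S100a14, both at -0.20, did not pass. The last 5 had means of 12.8 to 89.7 counts, far under S100a6. S100a5, S100a7a, S100a8, S100a9, S100b, S100g and S100z reached at most 4 counts and were not tested. S100pbp, which encodes a binding protein and no S100 protein, was higher by 0.07.

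**Figure D5:**
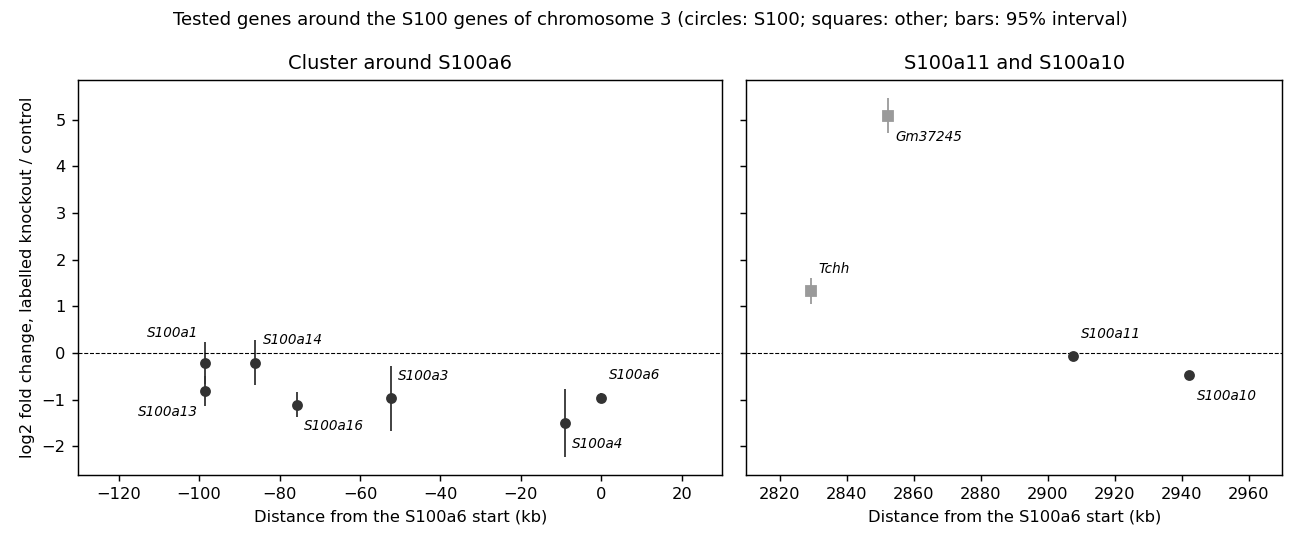
Log2 fold change (labelled knockout over control, bars: 95% interval) of the tested genes near the S100 genes of chromosome 3, against the distance of their start from that of S100a6 in kb; circles are S100 genes and squares are other genes. In the left panel S100a16, S100a3, S100a4, S100a6 and S100a13 lie under the dashed line at 0 by more than their bars, and in the right panel S100a10 does, with S100a11 at the line.

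Genes that start within 100 kb of the 10 moved in both directions. On the far side of S100a10 from S100a11, the gene model Gm5541 was lower at -4.02, at a mean of 10 counts. Ice2 near Anxa2 had a log2 fold change of 0.51, and Exosc9 and Ccna2 near Anxa5 had 0.49 and 0.20, while both annexins were lower. Near Lgals1, Cdc42ep1 was lower at -2.28 and Triobp at -0.17, Nol12 was higher at 0.16, and Sh3bp1 and Gga1 did not pass. Trdmt1 at 0.79 and Cubn at 0.50, the genes next to Vim, were higher as it was. Chtop near S100a4 was higher at 0.16, and no tested gene lay within 100 kb of Anxa1 or Anxa3.

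Partners and pathway genes were taken from 4 lists with 44 genes, of which 41 were tested, 23 being lower, 9 higher and 9 not called, beside the same 35.2% and 34.4% of all genes. Their median log2 fold change was -0.18. The plasminogen system and the partners of annexin A2 and S100A10 gave 7 lower, 1 higher and 3 not called of 11 tested. Plaur, the urokinase receptor, had a log2 fold change of -1.45. The protease inhibitor gene Serpine2 was at -0.89, against the positive median of its chromosome 1, and Ahnak, whose large product binds the annexin A2 complex, at -0.43. Among 11 membrane repair and vesicle genes 9 were lower, 1 higher and 1 not called. These included Capn2, a calpain gene on chromosome 1, at -1.38, the ferlin genes Dysf and Myof at -0.81 and -0.79, and Capn1 at -0.51. Cav1 of this list and Kcnk3 of the plasminogen and partner list were called lower. Both reached the minimum of 10 counts in control libraries alone, which favours their calls.

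Of 10 receptors and calcium-binding relatives tested, 4 were lower, 4 higher and 2 not called, shares near those of all genes. Itgb1, an integrin subunit to which galectin-1 binds, was at -0.70, and Myh9, the myosin heavy chain bound by S100A4, was at -0.57. Cacybp, the calcyclin-binding protein, was higher at 0.52, in the opposite direction to S100a6, and lies on chromosome 1. The calmodulin gene Calm2 was at 0.44. Of 9 genes that cross-link or phosphorylate vimentin, 3 were lower, 3 higher and 3 not called, likewise near the shares of all genes, and none of those named changed as much as Vim. The kinase gene Rock2 was at -0.35, the mitotic kinase genes Aurkb and Plk1 at 0.31 and 0.25, and the linker gene Dst, on chromosome 1, at 0.26.

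The genes whose pattern over the 6 libraries was nearest to that of Anxa2, S100a6, Lgals1 and Vim were sought among the 11115 genes averaging 100 counts or more, by the Euclidean distance of log2(CPM + 1) centred on the control libraries. Closest to Vim were Emp1 at 0.0694, Pik3cd at 0.0698 and Plpp1 at 0.0765, and closest to Lgals1 were Prrg4 at 0.115, Fxyd6 at 0.120 and Pdlim2 at 0.122. For S100a6 the nearest was the pseudogene Rpl34-ps1 at 0.103, with 1025, 1020 and 1028 counts in the controls and 451, 420 and 632 under the knockout label, likewise highest in labelled knockout 3. Gm9008 followed at 0.195 and Fosl2 at 0.196. For Anxa2 no gene came as near, the first being A230004M16Rik at 0.228, Adcy6 at 0.232 and Selenon at 0.235. These distances describe 6 libraries of 2 labels and carry no test.

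Markers of mESCs were abundant in all libraries, their summed level being 5604 to 5703 CPM in the controls and 6661 to 6713 CPM under the knockout label. Of 10, 8 were higher and 2 lower, beside 34.4% higher and 35.2% lower among all genes tested. Esrrb was at 1.16, Nanog at 1.13, Zfp42 at -0.77 and Lin28a at -0.44. Markers of fibroblasts or feeder cells, in which several of the genes described here are also abundant, had a low sum that moved with the 8 genes that fell, from between 60.6 and 63.2 CPM in the control libraries to at most 13.5 CPM under the knockout label. Of 12, 9 were tested, 7 being lower, 1 higher and 1 not called, beside the same shares of all genes. Col1a1 made most of the sum and of its fall, with 41.1 CPM in the controls and 3.93 CPM under the knockout label. It had a log2 fold change of -3.39, Col1a2 of -3.15 and Thy1 of -0.76, and the markers Lum, Fap and Dpt reached at most 1 count. Of the other markers with few counts, named after their values were seen, Postn had 7, 8 and 11 counts in the controls and none under the knockout label. Dcn had 5 to 11 and 0 to 1, Col3a1 12 to 21 and 2 to 5, and Twist2 9 to 10 and 0 to 1. Col6a3 went the other way, with 5, 9 and 9 counts in the controls and 13, 10 and 18 under the knockout label. It was called higher at 0.90, and Pdgfrb at -0.16 was not called. Postn, Dcn, Col3a1 and Twist2 were called lower. They reached the minimum of 10 counts in control libraries alone, and Col6a3 under the knockout label alone, which favours each call. These calls therefore add nothing to those of the 8 genes, of which S100a4 has the same limit. Vim, which such cells also express, was higher.

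The counts called in the further marker lists are to be read beside 35.2% lower and 34.4% higher among all genes tested. Trophoblast markers summed to 91.0 to 95.2 CPM and 83.5 to 87.0 CPM, with 5 of 8 lower, 2 higher and 1 not called. Among them were Krt7 and Hand1, both at -3.15, Plet1 at -0.84 and Tfap2c at 0.41. Primitive endoderm markers summed to 638 to 647 CPM and 591 to 600 CPM, with 5 of 12 lower, 3 higher and 4 not called, among them Col4a1 at -1.72, Cubn at 0.50, Lamb1 at -0.19 and Sparc at 0.15. Of the 5 lower, Sox17 and Foxa2 reached the minimum of 10 counts in control libraries alone, which favours their calls. For blood and macrophage markers, 4 of 5 tested were lower and 1 was higher, the sum going from 59.1 to 63.2 CPM down to 31.4 to 33.7 CPM, with Cd68 at -1.09 and Laptm5 at -0.89. Ptprc, which defines blood cells, reached at most 5 counts, and Lyz2 and Cx3cr1 had none. Csf1r, a macrophage receptor gene also named after its values were seen, had 18, 28 and 39 counts in the controls and 1, 0 and 0 under the knockout label. It reached the minimum of 10 counts in control libraries alone. Itgam, the marker called higher, had 45, 56 and 35 counts in the controls and 64, 84 and 79 under the knockout label (log2 0.81). The part of such cells in the changes of the 10 genes was not tested.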

How the data were processed

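The authors mapped read pairs to mm10 with TopHat2 2.0.10, after removal of ribosomal matches with Bowtie2 2.1.0, and counted fragments per GENCODE M4 gene by strand with HTSeq 0.6.1, discarding fragments with several matches. The deposited values are raw counts per gene. They were scaled by TMM and tested with edgeR 4.0.16 (glmQLFit, glmQLFTest, no covariates) over the 16823 genes that reached 10 counts in 1 library or more, followed by Benjamini-Hochberg adjustment. The SE is the log2 fold change divided by the square root of F. On simulated data, 99.5% of 200 changed genes were recovered among the 16823. The changed genes were drawn only from those of higher mean count, and the simulated spread was that fitted to these data. The recovery therefore does not cover genes with few counts, such as S100a4. Positions and lengths came from GENCODE M21 (42425 IDs matched) and promoters from RefSeq. The alternatives were other scaling, filters and tests (DESeq2 1.42.0 included), a replicate block and each library left out. Lengths of principal transcripts were added after seeing the data. All 10 members and all relatives are named, with at most 4 called genes of each other list (those of largest change with a mean of at least 100 counts), markers near 0, neighbouring genes and the 3 most alike genes. Genes that reached the count minimum in 1 group alone were named in addition. The members and lists were chosen with earlier results of these data known. Protein sequences were not used here. One gene that this rule names is not reported here.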

Additional observations from a re-analysis of the deposited data

How the results depend on the processing

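The directions of all 10 genes were the same under every alternative tried, and so were the calls at the same threshold for all but S100a11. A log2 change of at least 1 in addition left 7 of the 10, without S100a6 and S100a10. Of 130 planned values of their log2 fold changes, 129 kept the direction and the side of the threshold, and S100a11 passed without control replicate 1 (with libraries left out its log2 fold change ran from -0.091 to -0.047). The number of the 10 called was 9 under each other scaling, filter, test and the replicate block, and 9 to 10 with a library left out. The replicate block called 11801 genes in all against 11697 without it. Same-numbered libraries showed little shared deviation (correlations of 0.006, 0.072 and 0.015), and the other pairs ran from -0.072 to 0.054. No pairing by number was thus seen, but so few libraries cannot show that there was none. With a library left out, 11059 to 11304 genes were called, and DESeq2's Wald test called 10326. Over all genes, the log2 change of at least 1 left 2865. Depth limits S100a4 above all, whose log2 fold change ran from -1.71 to -1.24 with a library left out. The level of Vim per length moved with the transcript chosen, as given above.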

Other observations

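Between the S100 genes on chromosome 3, 10 other genes were tested, several of them genes of the epidermal differentiation complex, and they were looked up after the values of the S100 genes had been seen. Of these, 6 were lower, 2 higher and 2 not called, beside 35.2% lower and 34.4% higher among all genes tested. The median log2 fold change of these 10 was -1.32. Pglyrp3, which encodes a peptidoglycan recognition protein, had a log2 fold change of -3.24 (SE 0.53), and the cornified envelope genes Lor and Sprr1a had -1.99 (SE 0.46) and -4.62 (SE 0.82). Crct1 was at -1.40 (SE 0.31). SEs this wide go with few counts, as for S100a4. A gene that reaches the minimum of 10 counts in control libraries alone is favoured for a call of lower. This was not checked for these genes, so the 6 lower calls and the median are no result about the region. Tchh, the trichohyalin gene, was higher at 1.33 (SE 0.14), and the gene model Gm37245, which starts 55.1 kb before S100a11, at 5.09 (SE 0.19).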
